A study of Mus musculus with 3 samples.

Results

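Glis3-Mylk-Ramp3 cells were a group of migratory dendritic cells in lavage fluid of the bleomycin-injured mouse lung, chosen by counts of unique molecular identifiers (UMIs, 1 per captured RNA molecule). A cell entered the gate of migratory cells when it held at least 3 UMIs summed over Ccr7, Fscn1, Ccl22, Cacnb3 and Nudt17 and when Lyz2, the lysozyme gene of macrophages, took less than 0.5% of its UMIs. It was taken as a Glis3-Mylk-Ramp3 cell when the panel of Glis3, Mylk, Stard10, Edil3 and Ramp3 summed to at least 2 UMIs and to more than each of 2 rival panels, Clu, Ceacam15, Dkk2, Stxbp6 and Il2ra on one side and Il12b, Mab21l3, Tm4sf5, Bcl2l14 and Itgb8 on the other. The rule took 1331 of 42888 kept cells in all. Of these, 981 (73.7%) came from the WT_DMSO library, 201 from WT_GW5074 and 149 from KO_DMSO. The description that led to the rule held that nearly all of them would come from WT_DMSO, which was so for 73.7%.

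Bleomycin damages the lung and serves to model fibrosis; lavage cells of mice that had received it were sorted for CD11b or CD11c and sequenced from the 3' ends of transcripts in droplets. Wild-type (WT) mice under the label DMSO, WT mice that were given the kinase inhibitor GW5074, and Clec7a knockout (KO) mice under the label DMSO each gave 1 library, taken 14 days after bleomycin went into the airways. All 3 groups had received bleomycin, and no uninjured group was studied here. Strain, sex, age, dose and the number of mice pooled per library are not given in the sources used here. With 1 pooled library per group, a difference between groups cannot be told apart from a difference between pools or runs, no p-value was computed, and every interval below is an exact 95% interval that covers counting error only.

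The libraries held 13504, 17809 and 11678 barcodes (WT_DMSO, WT_GW5074 and KO_DMSO, in that order here and wherever libraries are compared) with 39180331, 45462817 and 34859676 UMIs. Kept cells had medians of 2438.5, 2276 and 2937 UMIs. Clec7a, the gene deleted in KO_DMSO, which encodes the beta-glucan receptor Dectin-1, stood at 421, 647 and 10.7 CPM (counts scaled to the same total in every group) in kept cells, and at 131, 159 and 0 CPM in Glis3-Mylk-Ramp3 cells. Between 80 and 154 barcodes occurred in a pair of libraries, and none was a Glis3-Mylk-Ramp3 cell in both. Transcripts of other cell types were present unequally: the 14 neutrophil genes summed to 1607, 68.7 and 63.9 CPM in Glis3-Mylk-Ramp3 cells, with 0, 9 and 10 of the genes at 0. S100a8, the most abundant of them, reached 863, 46.7 and 48.0 CPM. In WT_DMSO the same 14 genes summed to 1370 and 1288 CPM in the other migratory groups, close to the sum in Glis3-Mylk-Ramp3 cells. The 19 macrophage genes summed to 1146, 1160 and 701 CPM and the 16 genes of fibroblasts and smooth muscle to 3.54, 2.75 and 5.33 CPM. Free RNA and doublets were not removed, and their part in the differences below was not tested.

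Dendritic cells take up antigen in the airways and then switch to a migratory state, in which the receptor CCR7 guides them along CCL19 and CCL21 to the draining lymph node. The switch raises the actin-bundling protein fascin (Fscn1), the chemokine CCL22, costimulatory molecules and the checkpoint ligand PD-L1, while new synthesis of MHC class II falls. This state can be entered by both conventional lineages, cDC1 (Xcr1, Clec9a, Irf8) and cDC2 (Sirpa, Irf4). Of the genes that chose the cells, Glis3 encodes a zinc-finger transcription factor, Mylk the myosin light chain kinase, Stard10 a phospholipid transfer protein, Edil3 a secreted integrin ligand, and Ramp3 a membrane protein that pairs with the calcitonin receptor-like receptor CALCRL to form an adrenomedullin receptor.

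The 5 panel genes lie on 5 chromosomes (GENCODE M21, GRCm38): Glis3 at chr19:28258851-28680077 on the minus strand, and Mylk at chr16:34745210-35002420, Stard10 at chr7:101317086-101346626, Edil3 at chr13:88821472-89323223 and Ramp3 at chr11:6658521-6677475 on the plus strand. 4 of them have a promoter in the RefSeq table used, and these are shown because the panel defines the cells. Each runs 5' to 3' on the gene's strand, from 250 bases before the RefSeq start to 50 bases after it (GRCm38.p6). Capitals mark matches, on either strand, to 6 short motifs that were searched for: ACGTG, the core of the hypoxia response element; TGGGAA, the core bound by RBPJ; TGANTCA, the AP-1 site; AGAACA, the hexamer of the glucocorticoid receptor; TCACNCCAC, a sterol regulatory element; and an NF-kB site.
Glis3, chr19:28680028-28680327, minus strand: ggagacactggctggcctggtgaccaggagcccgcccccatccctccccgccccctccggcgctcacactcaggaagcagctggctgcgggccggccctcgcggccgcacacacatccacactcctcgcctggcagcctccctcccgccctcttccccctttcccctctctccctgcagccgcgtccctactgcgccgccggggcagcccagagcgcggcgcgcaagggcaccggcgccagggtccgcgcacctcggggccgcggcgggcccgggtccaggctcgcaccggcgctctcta
Mylk, chr16:34784700-34784999, plus strand: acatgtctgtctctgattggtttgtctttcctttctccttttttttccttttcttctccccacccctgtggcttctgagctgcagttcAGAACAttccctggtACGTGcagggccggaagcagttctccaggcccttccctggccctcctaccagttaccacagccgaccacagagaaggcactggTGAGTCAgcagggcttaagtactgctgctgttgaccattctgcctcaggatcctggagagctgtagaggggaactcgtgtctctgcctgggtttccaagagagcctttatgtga
Stard10, chr7:101316836-101317135, plus strand: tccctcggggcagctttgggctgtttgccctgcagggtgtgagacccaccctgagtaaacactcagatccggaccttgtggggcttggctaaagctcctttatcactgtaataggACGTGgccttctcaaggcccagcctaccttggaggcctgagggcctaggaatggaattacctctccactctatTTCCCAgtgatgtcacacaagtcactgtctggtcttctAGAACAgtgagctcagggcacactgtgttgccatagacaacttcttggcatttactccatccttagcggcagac
Ramp3, chr11:6658283-6658582, plus strand: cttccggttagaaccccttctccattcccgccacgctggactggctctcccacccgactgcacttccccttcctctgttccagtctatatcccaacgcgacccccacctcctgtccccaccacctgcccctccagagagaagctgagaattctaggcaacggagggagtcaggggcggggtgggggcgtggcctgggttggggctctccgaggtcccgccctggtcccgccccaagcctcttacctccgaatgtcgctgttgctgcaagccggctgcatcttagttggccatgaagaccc
The Mylk window lay inside the Mylk span given above and not at its start, unlike the other windows shown here. It held the hypoxia core, the AP-1 site and the glucocorticoid receptor hexamer. The Stard10 window held the hypoxia core, the glucocorticoid receptor hexamer and, on the other strand, the RBPJ core. None of the 6 motifs was found in the Glis3 and Ramp3 windows, which differed in composition from the others: 76.3% and 63.7% of their bases were G or C, against 53.3% each for Mylk and Stard10. Of 32851 promoter windows of this length, 19.6% held ACGTG, 19.0% AGAACA, 25.6% TGGGAA and 7.81% TGANTCA, so that these matches are common ones.

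The rule's own values describe how the group was cut and carry no test. In WT_DMSO, Ramp3 stood at 940 CPM in Glis3-Mylk-Ramp3 cells, against 222 CPM in the 661 cells chosen by the Clu panel (Clu-Dkk2-Il2ra cells) and 225 CPM in the 801 cells chosen by the Il12b panel (Il12b-Itgb8 cells). Mylk stood at 478, 132 and 62.5 CPM in the same 3 groups, Glis3 at 225, 38.4 and 20.2 CPM, Stard10 at 106, 17.1 and 25.9 CPM, and Edil3 at 91.0, 9.96 and 7.37 CPM. Ramp3 and Mylk were thus the abundant members of the panel, and together they gave most of the UMIs that admitted a cell.

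In the other libraries the chosen cells held fewer of the panel genes each, at an unequal depth that is described below. Ramp3 gave 51.1% of the panel's UMIs in WT_DMSO, 64.3% in WT_GW5074 and 66.3% in KO_DMSO, and its level in the chosen cells was alike, at 940, 1088 and 922 CPM. Mylk also kept its share, with 26.0%, 25.0% and 26.1%. Glis3 stood at 225, 110 and 66.6 CPM, Stard10 at 106, 57.7 and 24.0 CPM, and Edil3 at 91.0, 13.7 and 16.0 CPM, each lowest outside WT_DMSO. Of the WT_DMSO cells, 198 (20.2%) held UMIs of a single panel gene, 429 of 2 genes, 264 of 3, 78 of 4 and 12 of all 5. Of the WT_GW5074 cells, 113 (56.2%) held a single panel gene, and 8, 1 and 0 cells held 3, 4 and 5 of them. Of the KO_DMSO cells, 77 (51.7%) held a single panel gene, and 6, 0 and 0 held 3, 4 and 5.

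Depth differed, with medians of 2828, 1674 and 2445 UMIs per chosen cell, so the counts of genes were repeated with each cell thinned to 1000 UMIs. This left out 17, 24 and 1 shallower cells. After thinning, a single panel gene was found in 48.7%, 66.7% and 60.8% of cells, a smaller gap than with all UMIs. 2 panel genes were found in 27.0%, 22.6% and 14.2%, and the mean panel sum was 1.97, 1.79 and 1.39 UMIs. 3 or more panel genes were found in 86 of 964 WT_DMSO cells (8.92%), 4 of 177 WT_GW5074 cells (2.26%) and 1 of 148 KO_DMSO cells (0.676%). The plot of panel genes per cell shows both forms.

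**Figure D1:**
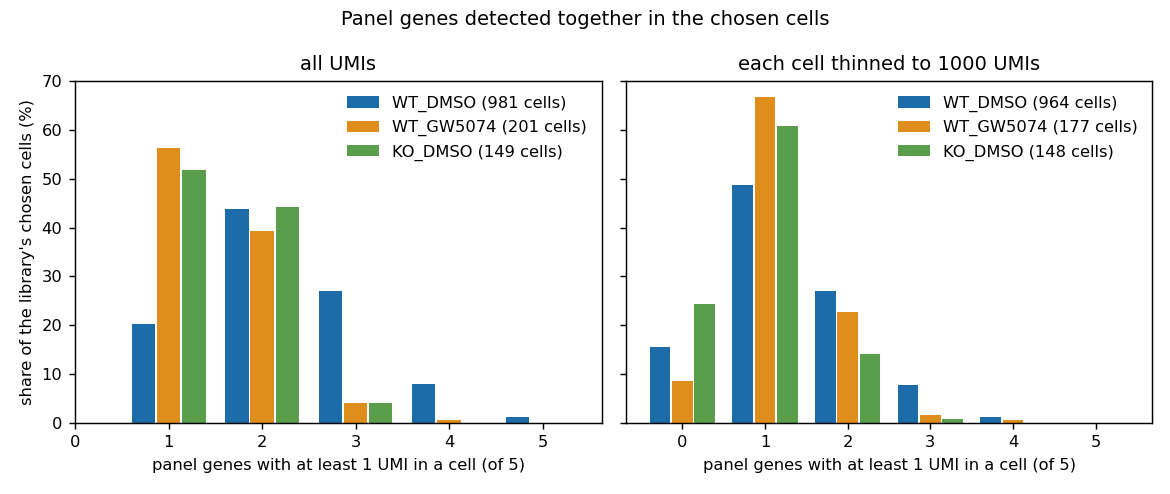
Share of each library's chosen cells (y axis, percent) that held at least 1 UMI of 0 to 5 panel genes (x axis), with all UMIs on the left and with each cell thinned to 1000 UMIs on the right; bars are coloured by library. With all UMIs, 20.2% of WT_DMSO cells held a single panel gene, against 56.2% and 51.7% in WT_GW5074 and KO_DMSO, and 4 panel genes were held by 78, 1 and 0 cells. After thinning, a single panel gene was found in 48.7%, 66.7% and 60.8% of cells.

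A gene's level can be read apart from its own part in the choice when the cells are chosen by the other 4 panel genes. The rival groups were then chosen again too, and are not the same sets of cells as above. In WT_DMSO, 862 Clu-Dkk2-Il2ra cells chosen without Ramp3 held it at 436 CPM. Without Mylk in the panel, 745 such cells held Mylk at 227 CPM. Chosen so, the 878 cells of WT_DMSO held Glis3 at 184 CPM, 2.86-fold (2.37 to 3.47) above Clu-Dkk2-Il2ra cells. Stard10 stood at 86.9 CPM in 933 cells, 3.72-fold (2.74 to 5.14) above them, and Edil3 at 67.9 CPM, 3.36-fold above. Ramp3 reached 771 CPM in the 477 cells chosen without it, 1.77-fold above Clu-Dkk2-Il2ra cells, and Mylk 345 CPM, 1.52-fold (1.36 to 1.70) above. The panel was itself set with earlier results of these data known, so these ratios describe the cells and are no test. In WT_DMSO each panel gene was higher in the cells that the other 4 had chosen.

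The other libraries, with all groups chosen again in the same way, differed in this. Glis3 was 1.99-fold (1.05 to 3.66) above Clu-Dkk2-Il2ra cells in WT_GW5074 and 1.47-fold (0.665 to 2.998) in KO_DMSO. For Ramp3 the ratios were 0.886 and 0.971, and for Mylk 0.525 (0.313 to 0.833) and 0.680 (0.439 to 1.01). Stard10 gave 1.53 and 0.935, and Edil3 1.30 and 0.883. Against Clu-Dkk2-Il2ra cells, Glis3 in WT_GW5074 was thus the only panel gene of these libraries whose ratio was above 1 with an interval that excluded it. Against Il12b-Itgb8 cells, which held less Glis3 and Mylk, Glis3 was 9.20-fold (4.03 to 22.3) higher in WT_GW5074 and 3.30-fold (1.39 to 7.58) in KO_DMSO. Mylk was 1.88-fold (1.18 to 2.91) higher in KO_DMSO. The intervals of the other ratios against these cells included 1. Mylk gave 1.68 in WT_GW5074, Ramp3 1.09 and 0.949, Stard10 1.67 and 0.581, and Edil3 1.91 and 1.17.

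Ndrg1, a stress- and hypoxia-responsive gene that was named with the panel but is no part of the rule, stood at 551 CPM in WT_DMSO Glis3-Mylk-Ramp3 cells, against 121 and 247 CPM in Clu-Dkk2-Il2ra and Il12b-Itgb8 cells (4.54-fold and 2.23-fold). It lies at chr15:66929318-66969640 on the minus strand. Its level in the chosen cells of WT_GW5074 was 209 CPM and in those of KO_DMSO 139 CPM.

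Glis3-Mylk-Ramp3 cells made up 7.29% (6.86 to 7.74) of the kept cells of WT_DMSO, 1.13% (0.980 to 1.30) of those of WT_GW5074 and 1.28% (1.08 to 1.501) of those of KO_DMSO. The share was 6.45-fold (5.54 to 7.55) lower in WT_GW5074 and 5.70-fold (4.79 to 6.81) lower in KO_DMSO. The gate itself was passed by 24.5%, 14.8% and 14.99% of kept cells. Among the 3293, 2633 and 1745 cells past the gate, the shares were 29.8% (28.2 to 31.4), 7.63% (6.65 to 8.71) and 8.54% (7.27 to 9.95), or 3.90-fold and 3.49-fold lower. The other migratory and conventional groups were closer between libraries. Clu-Dkk2-Il2ra cells were 4.91%, 3.67% and 5.05% of kept cells, and Il12b-Itgb8 cells 5.95%, 4.30% and 4.96%. A stricter panel sum of at least 5 UMIs, an alternative that leans on depth, left 555, 30 and 29 cells.

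**Figure D2:**
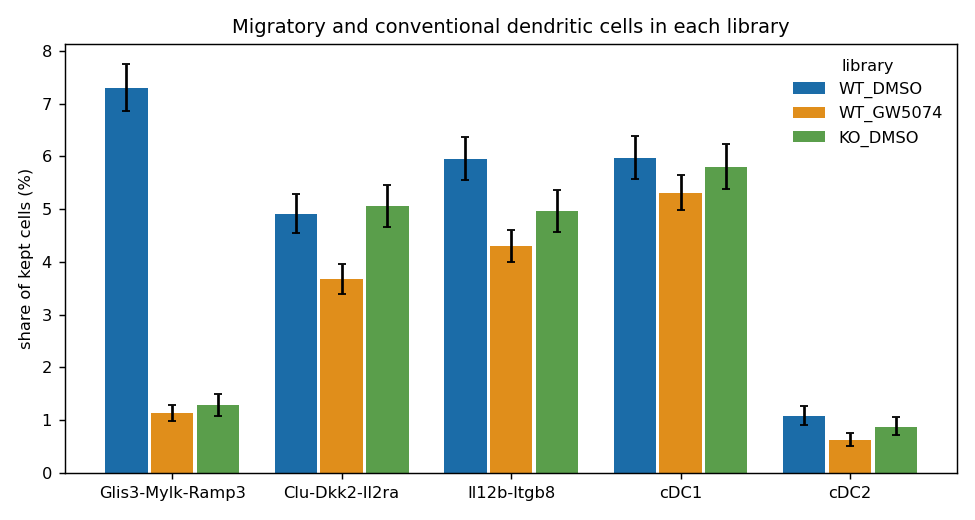
Share of kept cells (y axis, percent) held by the 3 migratory groups and by cDC1 and cDC2 cells in each library; whiskers are exact 95% intervals for counting error. Glis3-Mylk-Ramp3 cells were at 7.29% in WT_DMSO and at 1.13% and 1.28% in the other libraries, while the other migratory groups lay between 3.67% and 5.95%.

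The label of migratory dendritic cells was set against genes the rule did not use. In WT_DMSO, 6902 genes could be compared with cDC1 cells and 7104 with cDC2 cells, which carried at least 3 UMIs of their lineage genes and stayed below the gate. A gene was called higher or lower where the levels differed at least 2-fold and the interval of the ratio excluded 1. By that rule 13.8% of all genes were higher and 16.4% lower than in cDC1 cells, and 12.2% and 19.4% against cDC2 cells. Of the mature regulatory programme (the genes that mark this state, such as Cd274, Cd200, Socs2, Relb and Birc3), 25 of 29 genes were higher than in cDC1 cells and none was lower. Against cDC2 cells, 26 of 29 were higher and 1, the chemokine gene Ccl17, was lower. Cd274, which encodes PD-L1, stood at 483 CPM against 47.0 and 96.8 CPM in cDC1 and cDC2 cells, and Relb, an NF-kB subunit, at 639 CPM against 52.5 and 85.2 CPM. Flt3 and Zbtb46, which mark the dendritic lineage, stood at 509 and 174 CPM. Of the cDC1 lineage list, 17 of 19 genes were lower than in cDC1 cells and 1, Batf3, was higher; of the cDC2 list, 11 of 16 were lower than in cDC2 cells and 1, Tbc1d4, was higher. The reference cells were chosen by some of these genes. Xcr1 was at 6.11 CPM against 259 CPM in cDC1 cells, Sirpa at 112 CPM against 356 CPM in cDC2 cells, and Batf3 at 316 CPM against 150 and 67.7 CPM. The chosen cells had passed the migratory gate and the reference cells had stayed below it. Higher genes of the mature regulatory programme can follow from that choice, so they describe the cells and are no test of the label. Markers of smooth muscle, which also uses Mylk, were nearly absent, with Acta2 at 0.964 CPM and Myh11, Cnn1 and Des at 0.

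The 3 migratory groups of WT_DMSO differed from each other in fewer genes. Where they are compared below, 3 values in a row are those of Glis3-Mylk-Ramp3, Clu-Dkk2-Il2ra and Il12b-Itgb8 cells of WT_DMSO, in that order. Of 6210 genes compared with Clu-Dkk2-Il2ra cells, 173 (2.79%) were higher and 128 (2.06%) lower in Glis3-Mylk-Ramp3 cells. Of 6186 compared with Il12b-Itgb8 cells, 361 (5.84%) were higher and 187 (3.02%) lower. Scaling by the median of ratios in place of the total turned the balance: higher calls went from 57.5% to 47.7% of calls against Clu-Dkk2-Il2ra cells (144 higher, 158 lower) and from 65.9% to 40.6% against Il12b-Itgb8 cells (201 higher, 294 lower). The median of all genes, 0.08 and 0.19 on the log2 scale under the main scaling, is 0 under the other, so ratios are read beside these medians. Between the other groups, 164 genes (2.77%) were higher and 200 (3.38%) lower in Il12b-Itgb8 than in Clu-Dkk2-Il2ra cells. Against both groups at once, 87 genes (1.44% of 6054) were higher and 44 (0.727%) lower. The choice of cells by their counts can itself set such differences, so the calls describe the groups and are no test.

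The vitamin D receptor gene Vdr, on chr15:97854425-97910630 (minus strand), led the higher genes. It stood at 302 CPM (283 to 322) in Glis3-Mylk-Ramp3 cells of WT_DMSO, 84.0 CPM in Clu-Dkk2-Il2ra cells and 49.3 CPM in Il12b-Itgb8 cells. That was 3.60-fold (3.06 to 4.25) and 6.13-fold higher. In the chosen cells of WT_GW5074 and KO_DMSO it stood at 65.9 and 85.3 CPM, close to the 53.3 and 73.4 CPM of the Clu-Dkk2-Il2ra cells of those libraries. Vdr was the only gene of the retinoic acid and vitamin D list that was higher than in both other groups, while Aldh1a2, which encodes the enzyme that makes retinoic acid, was lower than in Clu-Dkk2-Il2ra cells (39.2 against 81.1 CPM).

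Cd80, a costimulatory ligand of CD28 on chr16:38455561-38496335 (plus strand), stood at 626 CPM against 264 and 205 CPM (2.37-fold and 3.05-fold). Its partner ligand Cd86 stood at 500 CPM against 279 and 221 CPM and was called only against Il12b-Itgb8 cells. Of the costimulation list, Havcr2, which encodes the inhibitory receptor TIM-3, was also higher than in both groups (23.1, 7.12 and 10.6 CPM), and Icosl was lower than in Clu-Dkk2-Il2ra cells (34.7 against 74.0 CPM). Cd40 was not called in the migratory groups at 112, 146 and 143 CPM, nor was Cd274 at 483, 515 and 535 CPM. Across the mature regulatory programme no gene of 30 was called higher against either group, and 2 were lower against each (Icosl and H2-M2, then Il4i1 and H2-M2). Among all genes, 2.79% were higher and 2.06% lower against Clu-Dkk2-Il2ra cells, and 5.84% and 3.02% against Il12b-Itgb8 cells.

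Other genes among the 15 highest have separate roles. Itpr1, a calcium release channel of the endoplasmic reticulum, stood at 263 CPM against 61.7 and 105 CPM. Sphk1, which makes sphingosine 1-phosphate, stood at 70.7 CPM against 20.4 and 21.8 CPM, and Cd38, an ectoenzyme that makes the calcium messenger cyclic ADP-ribose, at 54.0 CPM against 20.4 and 17.6 CPM. Nmb, the gene of the neuropeptide neuromedin B, stood at 64.0 CPM against 19.0 and 12.5 CPM, and no UMI of it was found in the chosen cells of WT_GW5074 or KO_DMSO. Satb1, a chromatin organiser, was at 72.6 CPM against 24.7 and 12.8 CPM, and Tcn2, the cobalamin carrier, at 116 CPM against 32.7 and 40.0 CPM. St7, Acsf3, Man2a1, Ifitm1, Ddit4 and Mt2 were also among them, at 113 to 417 CPM.

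Ramp3 acts only with a receptor partner. Calcrl, which encodes that partner, stood at 19.0 CPM in Glis3-Mylk-Ramp3 cells, lower than the 43.7 CPM of Clu-Dkk2-Il2ra cells and near the 21.1 CPM of Il12b-Itgb8 cells. Ramp1 was at 15.1, 17.6 and 14.4 CPM, and Ramp2 had no UMI in any group of any library. Of the 13 genes of calcitonin family receptors and ligands, 4 were high enough to compare, and Calcrl was the only one called. Mylk is a kinase of the actomyosin system. Of 17 actomyosin genes compared, none was called against Clu-Dkk2-Il2ra cells, and Tagln2 alone, lower, against Il12b-Itgb8 cells. Among all genes, 2.79% were higher and 2.06% lower against Clu-Dkk2-Il2ra cells, and 5.84% and 3.02% against Il12b-Itgb8 cells. Few calls were thus due in a list of this size. Myh9, the myosin heavy chain of non-muscle cells, was at 589, 589 and 536 CPM, and Myl6, a myosin light chain, at 2166, 2472 and 2629 CPM. Myl9, the light chain that smooth muscle uses, was at 0.321 CPM.

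Apol7c, an apolipoprotein L gene on chr15:77524852-77533316 (minus strand), stood first among the named lower genes, which were ranked by the smaller of both ratios. It stood at 67.2 CPM against 422 and 709 CPM, 6.28-fold and 10.6-fold lower. Rbpj, the DNA-binding effector of Notch signalling on chr5:53466152-53657362 (plus strand), stood at 190 CPM against 627 and 815 CPM, 3.30-fold and 4.28-fold lower. In WT_GW5074 and KO_DMSO the chosen cells held Rbpj at 701 and 613 CPM, near the level of the other migratory cells. Rbpj was the only Notch gene of 9 called against Clu-Dkk2-Il2ra cells, while against Il12b-Itgb8 cells 3 of 10 were lower, Rbpj, the ligand gene Jag1 (17.4 against 46.8 CPM) and the coactivator gene Maml2 (36.6 against 83.9 CPM). Notch2 was not called, at 103, 112 and 97.7 CPM. Gclc, which encodes the rate-limiting subunit of glutathione synthesis, stood at 60.4 CPM against 143 and 445 CPM, and Palld, an actin-binding protein gene, at 28.3 CPM against 111 and 64.4 CPM.

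**Figure D3:**
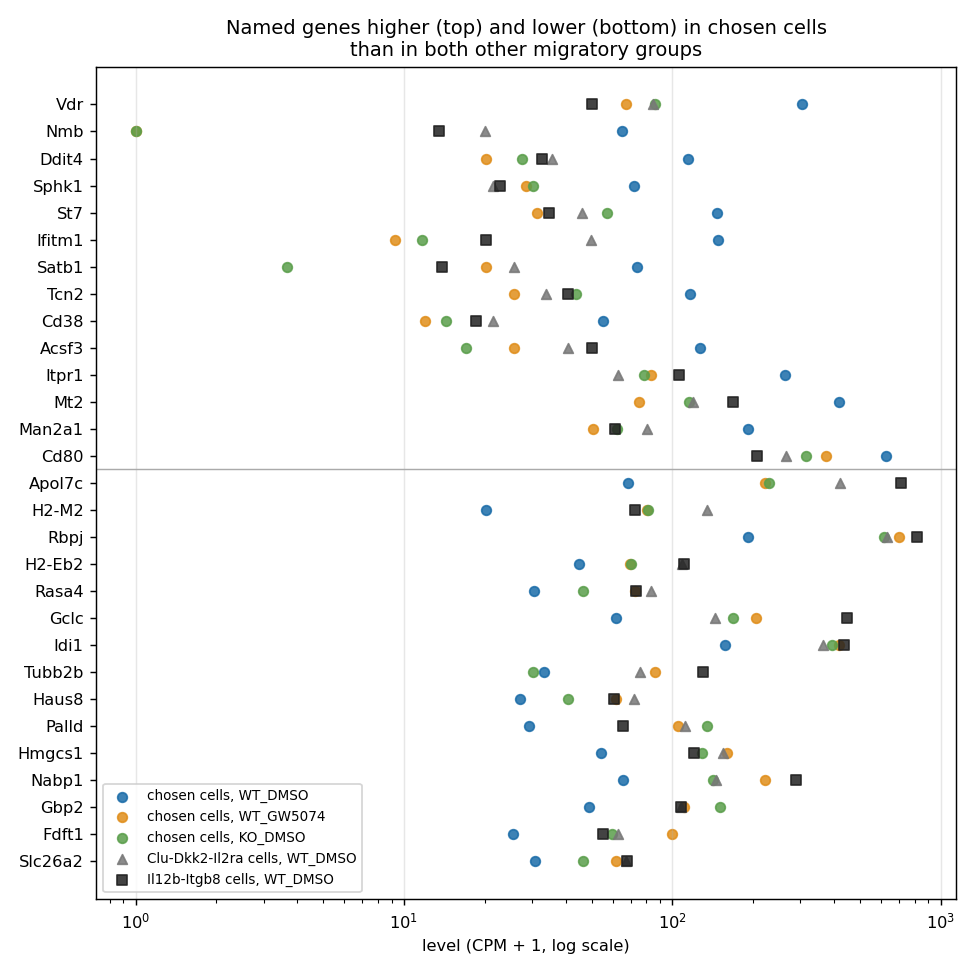
Level (x axis, CPM plus 1, log scale) of named genes that were higher (top) or lower (bottom) in Glis3-Mylk-Ramp3 cells of WT_DMSO against both other migratory groups; circles are the chosen cells of each library, and triangles and squares the other migratory cells of WT_DMSO. For Vdr the blue circle stands at 302 CPM and every other mark at or below 85.3 CPM, and for Rbpj it stands at 190 CPM with the others at or above 613 CPM.

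Of 13 genes of MHC class II presentation compared with Clu-Dkk2-Il2ra cells, 6 were lower (H2-Ab1, H2-DMb1, H2-DMb2, H2-Oa, Cd74 and Ciita) and none was higher, where 2.06% of all genes were lower. Their median log2 ratio was -0.80. Against Il12b-Itgb8 cells only Ciita, 1 of 12, was lower (3.02% of all genes; median -0.53). Ciita, which encodes the master activator of these genes, stood at 11.6 CPM against 86.4 and 31.7 CPM, and at 516 and 449 CPM in cDC1 and cDC2 cells. H2-Ab1, a chain of the presenting molecule, stood at 630 CPM against 1274 and 1006 CPM, and Cd74, the invariant chain, at 2426 CPM against 4920 and 4525 CPM. The non-classical H2-M2 was at 19.3 CPM against 133 and 71.4 CPM and H2-Eb2 at 43.7 CPM against 108 and 110 CPM.

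Of the cholesterol synthesis genes, 5 of 14 were lower and none higher than in Clu-Dkk2-Il2ra cells (2.06% of all genes were lower; median log2 ratio -0.94). Against Il12b-Itgb8 cells 5 of 13 were lower and none higher (3.02% of all genes were lower; median -0.74). Hmgcs1, an early enzyme of the pathway, stood at 53.0 CPM against 154 and 120 CPM, Idi1 at 156 CPM against 362 and 434 CPM, and Fdft1, which encodes squalene synthase, at 24.4 CPM against 61.7 and 54.1 CPM. The Hmgcs1 promoter is shown because it carries the sterol regulatory element that its pathway is known for, TCACNCCAC (here TCACCCCAC), found in 1.24% of all promoter windows; its other capitals mark TGGGAA and AGAACA, both on the minus strand.
Hmgcs1, chr13:119690101-119690400, plus strand: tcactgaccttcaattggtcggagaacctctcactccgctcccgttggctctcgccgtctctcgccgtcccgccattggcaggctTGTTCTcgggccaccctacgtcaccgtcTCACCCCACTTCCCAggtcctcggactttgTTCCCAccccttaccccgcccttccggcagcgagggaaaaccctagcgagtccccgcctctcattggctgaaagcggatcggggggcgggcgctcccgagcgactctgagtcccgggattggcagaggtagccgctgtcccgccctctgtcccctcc
Among the 15 named lower genes, 11 had a promoter in the table, and Hmgcs1 was the only one of these with that motif. The Idi1 window held none of the motifs searched for, and Fdft1 had no promoter in the table. The window of Cd80, a higher gene, held the same element. Whether the element bears on these levels was not tested.

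Of 13 genes that glucocorticoid hormone induces, 5 were higher than in Clu-Dkk2-Il2ra cells (Per1, Ddit4, Mt1, Mt2 and Il1r2), where 2.79% of all genes were higher. Against Il12b-Itgb8 cells 6 of 13 were higher (Klf9, Per1, Ddit4, Errfi1, Mt2 and Il1r2), where 5.84% of all genes were. None was lower in either comparison, and the medians were 0.63 and 0.88. Mt1 and Mt2, the metallothioneins, stood at 1085 and 417 CPM against 417 and 118 CPM in Clu-Dkk2-Il2ra cells and 591 and 167 CPM in Il12b-Itgb8 cells. Per1, a clock gene, stood at 56.6 CPM against 27.0 and 18.6 CPM. Ddit4, an mTOR inhibitor that also responds to low oxygen, stood at 113 CPM against 34.6 and 31.7 CPM. Il1r2, the decoy receptor of interleukin 1, stood at 121 CPM against 57.4 and 50.3 CPM; it is also a neutrophil gene. Fkbp5, Tsc22d3 and Klhl6 were not called, with Fkbp5 at 86.1, 45.1 and 58.3 CPM. Among 12 hypoxia-induced genes only Ndrg1 and Ddit4 were called, both higher, and no gene of 31 in oxidative phosphorylation was called. Lower calls were also rare among all genes, at 2.06% against Clu-Dkk2-Il2ra cells and 3.02% against Il12b-Itgb8 cells.

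Lineage regulators differed from each neighbour in turn. Irf8, the cDC1 factor, stood at 206 CPM, near the 196 CPM of Clu-Dkk2-Il2ra cells and below the 502 CPM of Il12b-Itgb8 cells. Irf4, the cDC2 factor, stood at 29.3 CPM, below the 82.6 CPM of Clu-Dkk2-Il2ra cells and near the 29.1 CPM of Il12b-Itgb8 cells. Tcf4 and Runx2 were at 223 and 93.2 CPM, against 66.6 and 32.3 CPM in Il12b-Itgb8 cells. In Clu-Dkk2-Il2ra cells they were at 152 and 84.9 CPM, and neither was called against those cells. Kit, the stem cell factor receptor, was at 117 CPM against 49.4 and 50.9 CPM. Of interferon-induced genes, Isg15 was at 35.4 CPM against 73.1 and 121 CPM and Usp18 at 8.68 CPM against 35.1 and 40.7 CPM. No gene of the NF-kB list (24) was called against either group. Among all genes, 2.79% were higher and 2.06% lower against Clu-Dkk2-Il2ra cells, and 5.84% and 3.02% against Il12b-Itgb8 cells. Few calls were thus due in a list of this size.

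The chosen cells of WT_DMSO were compared with those of each other library. Between WT_DMSO and WT_GW5074, 354 genes (5.55% of 6375) were higher and 252 (3.95%) lower in the chosen cells of WT_DMSO. For Clu-Dkk2-Il2ra cells the counts were 67 (1.12%) and 36 (0.6%), and for Il12b-Itgb8 cells 38 (0.68%) and 24 (0.43%). Between WT_DMSO and KO_DMSO, 657 (10.5% of 6270) were higher and 212 (3.38%) lower in the chosen cells, against 200 (3.38%) and 44 (0.745%) for Clu-Dkk2-Il2ra cells and 186 (3.35%) and 44 (0.792%) for Il12b-Itgb8 cells. These comparisons share the WT_DMSO library, and numbers of cells and depth differed between them. Within the other libraries the chosen cells stood less far from Clu-Dkk2-Il2ra cells: 74 genes (1.23%) were higher and 77 (1.28%) lower in WT_GW5074, and 90 (1.56%) and 102 (1.77%) in KO_DMSO, where fewer cells were chosen. Against Il12b-Itgb8 cells, 270 (4.59%) were higher and 123 (2.09%) lower in WT_GW5074, and 198 (3.52%) and 121 (2.15%) in KO_DMSO.

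The groups of genes that set the WT_DMSO cells apart from their neighbours also differed between libraries. Of 14 glucocorticoid-induced genes, 9 were higher and 1 (Sgk1) lower in WT_DMSO than in WT_GW5074 (median log2 ratio 1.44), and 8 were higher than in KO_DMSO (median 1.28). Among all genes compared, 5.55% were higher and 3.95% lower than in WT_GW5074, and 10.5% were higher than in KO_DMSO. Mt2 stood at 417, 74.2 and 115 CPM, Ddit4 at 113, 19.2 and 26.6 CPM, Fkbp5 at 86.1, 24.7 and 34.6 CPM, and Klhl6 at 57.5, 10.99 and 7.99 CPM. Il1r2 stood at 121 CPM, at 0 and at 5.33 CPM. It is also a neutrophil gene, and neutrophil transcripts were unequal between libraries. In Clu-Dkk2-Il2ra cells Il1r2 stood at 57.4, 11.2 and 5.54 CPM. Some of these differences ran through the other migratory cells too: in Clu-Dkk2-Il2ra cells Klhl6 stood at 64.5, 5.16 and 6.92 CPM and Fkbp5 at 45.1, 23.2 and 33.2 CPM, while Mt2 stood at 118, 70.5 and 66.5 CPM.

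Of 17 cholesterol synthesis genes, 11 were lower and none higher in WT_DMSO than in WT_GW5074 (median -1.31), and 5 of 16 were lower than in KO_DMSO (median -0.86). Among all genes compared, 3.95% were lower than in WT_GW5074 and 3.38% lower than in KO_DMSO. Hmgcs1 stood at 53.0, 159 and 128 CPM and Fdft1 at 24.4, 98.9 and 58.6 CPM. In Clu-Dkk2-Il2ra cells Hmgcs1 stood at 154, 186 and 129 CPM. Of 13 MHC class II genes, 3 were lower than in WT_GW5074 and 1, Cd74, lower than in KO_DMSO, where Cd74 stood at 5574 CPM. Cd80 was 1.67-fold and 1.99-fold higher in WT_DMSO than in the chosen cells of WT_GW5074 and KO_DMSO (374 and 314 CPM), short of the 2-fold line.

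The cells on either side of the rule's threshold are described by 3 genes (values without a test). In WT_DMSO the 1063 cells past the gate with no panel UMI held Vdr at 37.5 CPM, Apol7c at 732 CPM and Rbpj at 775 CPM. The 112 cells just outside, with a panel sum of 1 that exceeded both rivals, held them at 151, 250 and 501 CPM. The 136 cells just inside, with a sum of 2, held them at 248, 56.6 and 233 CPM, and the 845 cells with 3 or more at 308, 68.4 and 185 CPM. In WT_GW5074 the 109 cells with 3 or more held Vdr at 80.5 CPM, Apol7c at 180 CPM and Rbpj at 615 CPM, and in KO_DMSO the 104 such cells held them at 94.0, 235 and 633 CPM. Cells with a high panel sum in those libraries were thus unlike those of WT_DMSO in these 3 genes. A further 154, 77 and 57 cells tied with another panel and 495, 212 and 289 fell below another panel, and none of these entered the group.

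The genes of the rule were then left out and the cells of WT_DMSO past the gate compared by the rest of their transcripts. Among the 15 nearest neighbours of a Glis3-Mylk-Ramp3 cell, 56.2% on average were such cells, which made up 29.8% of the cells. Glis3-Mylk-Ramp3 cells were 22.4% of the neighbours of Clu-Dkk2-Il2ra cells and 14.9% of those of Il12b-Itgb8 cells. The other groups also lay with their own kind. Clu-Dkk2-Il2ra cells were 38.3% of each other's neighbours and 20.1% of the cells. For Il12b-Itgb8 cells these values were 64.1% and 24.3%, so lying together was not particular to Glis3-Mylk-Ramp3 cells. Most neighbours were Glis3-Mylk-Ramp3 cells for 636 of the 981 (64.8%).

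When the cells of all 3 libraries past the gate were clustered together on genes outside the rule, with no correction for library, 16 clusters formed. This clustering was added after the values above had been seen. Glis3-Mylk-Ramp3 cells were the majority of clusters 3 (736 cells, 59.5%) and 6 (489 cells, 56.0%) and of no other. Cluster 3 held 727, 4 and 5 cells of the libraries, and cluster 6 held 482, 4 and 3. Together they took 8.99% (8.51 to 9.48) of the kept cells of WT_DMSO, 0.0450% (0.0194 to 0.0886) of WT_GW5074 and 0.0687% (0.0297 to 0.135) of KO_DMSO. Of the chosen cells, 707 of WT_DMSO (72.1%) lay in them, against 2 of WT_GW5074 (0.995%) and 3 of KO_DMSO (2.01%). The 199 and 146 others lay among clusters that all libraries shared. On average 53.0% of the neighbours of a chosen WT_DMSO cell were other chosen WT_DMSO cells, but 4.64% and 4.21% of the neighbours of the chosen cells of WT_GW5074 and KO_DMSO were. Clusters that come almost wholly from 1 library may be that library and not a cell type, and with 1 library per group the readings cannot be told apart. Cluster 8 (306, 20 and 9 cells), with 87 chosen WT_DMSO cells, also came mostly from WT_DMSO, whereas the larger clusters 0, 1 and 2 took at least 315 cells from each library.

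**Figure D4:**
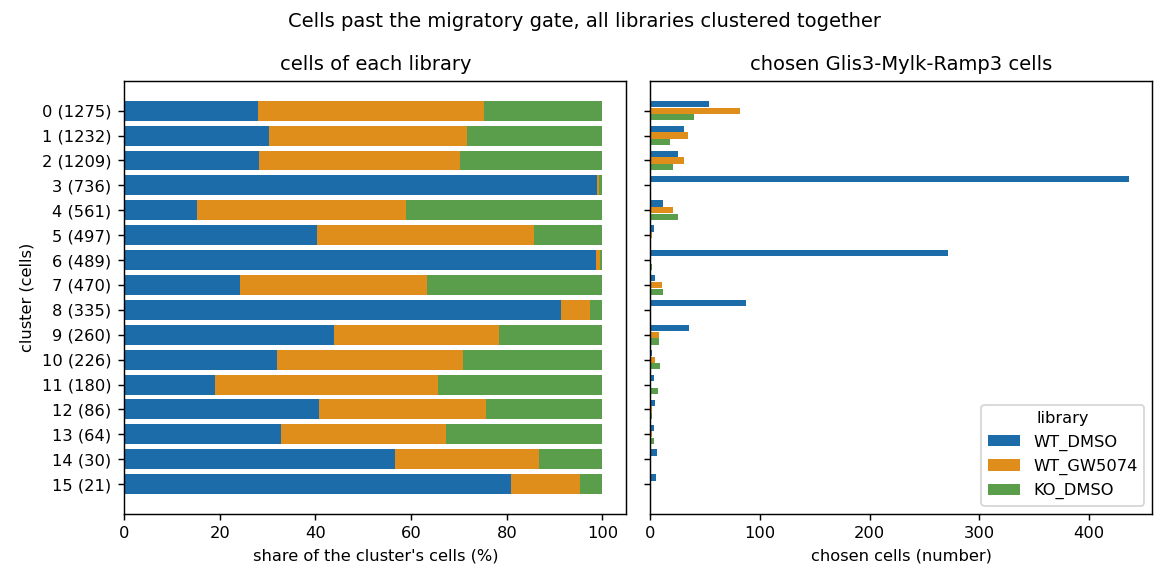
Left, share of each cluster's cells (x axis, percent) that came from each library; right, number of chosen Glis3-Mylk-Ramp3 cells in each cluster (x axis), for the 16 clusters of cells past the migratory gate, with the number of cells in brackets. Clusters 3 and 6 are nearly all WT_DMSO and hold 707 of its 981 chosen cells, while 199 and 146 chosen cells of WT_GW5074 and KO_DMSO lie in other clusters, and 2 and 3 in these.

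The chosen WT_DMSO cells thus fell into 436 cells of cluster 3, 271 of cluster 6 and 274 elsewhere. The clusters were drawn from genes outside the rule, which can include those below. Likeness within the clusters and contrast with cells elsewhere can thus follow from the clustering, and the values are no test. Several of the genes described above were alike in both clusters. Vdr stood at 380 CPM in cluster 3 and 372 CPM in cluster 6, but at 136 CPM in the chosen cells elsewhere. Cd80 stood at 742 and 728 CPM, with 379 CPM elsewhere, and Itpr1 at 312 and 317 CPM. Apol7c was at 17.0 and 25.7 CPM, with 171 CPM elsewhere, Rbpj at 148 and 143 CPM, with 290 CPM elsewhere, and Ciita at 3.40 and 4.11 CPM, with 29.2 CPM elsewhere. The 502 cells of both clusters that the rule had not chosen resembled the chosen ones, with Vdr at 275 CPM, Cd80 at 711 CPM, Apol7c at 21.3 CPM and Rbpj at 189 CPM. The neutrophil gene S100a8 stood at 172 and 160 CPM in the chosen cells of clusters 3 and 6 and at 2425 CPM in the chosen cells elsewhere.

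Of 6277 genes compared between the chosen cells of both clusters, 177 (2.82%) were higher and 251 (4%) lower in cluster 6. Since the clusters were drawn from the same genes, these values describe them and are no test. Cluster 6 carried more of the cDC1 lineage list, with 5 of 10 genes higher and none lower. Cadm1, an adhesion molecule of cDC1, stood at 37.0 CPM in cluster 6 against 4.24 CPM in cluster 3, Itgae, the integrin chain CD103, at 40.0 against 5.94 CPM, Gcsam at 33.9 against 4.24 CPM and Cd24a at 187 against 66.2 CPM. Xcr1 and Clec9a, which define resting cDC1, were low in both. Plet1 stood at 210 against 17.8 CPM (11.8-fold) and Scin, an actin-severing protein gene, at 613 against 110 CPM. Of 13 type I interferon genes, 5 were higher in cluster 6 and none lower.

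Cluster 3 held more of other genes. Sirpa, an inhibitory receptor that marks cDC2, stood at 121 CPM in cluster 3 against 33.9 CPM in cluster 6 (3.56-fold), and Zeb2, a transcription factor of cDC2 and monocytes, at 143 against 25.7 CPM (5.56-fold). Dscam, an adhesion gene of neurons, stood at 132 against 18.5 CPM (7.12-fold). Of the cDC2 lineage list, 1 of 8 genes, Sirpa, was called, and Zeb2 is not on that list. Irf4 stood at 30.6 CPM in cluster 3 and 25.7 CPM in cluster 6, and Mgl2 went the other way, at 13.6 and 24.6 CPM. Irf8 stood at 154 and 186 CPM and Batf3 at 325 and 383 CPM, and none of these lineage genes was called. Of 29 named genes compared, 4 were called between the clusters, H2-M2, Nmb, Ifitm1 and Mt2, all higher in cluster 6. Ifitm1 stood at 263 against 53.5 CPM.

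**Figure D5:**
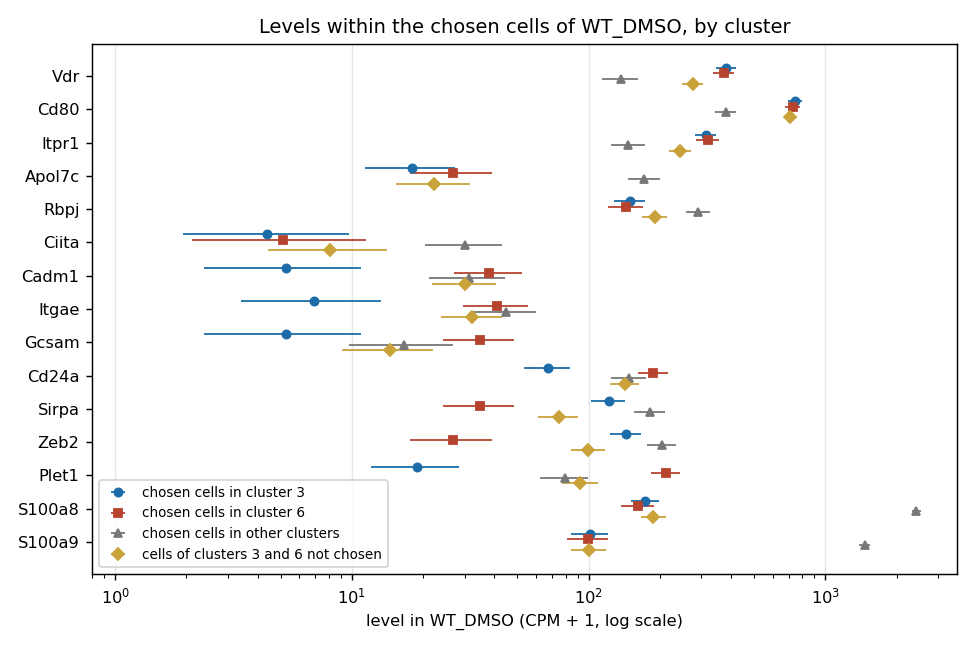
Level in WT_DMSO (x axis, CPM plus 1, log scale) of 15 genes in the chosen cells of clusters 3 and 6, in the chosen cells of other clusters and in the cells of clusters 3 and 6 that were not chosen; whiskers are exact 95% intervals for counting error. Vdr, Cd80, Itpr1, Apol7c, Rbpj and Ciita lie together in both clusters, while Cadm1, Itgae, Gcsam, Cd24a and Plet1 are higher in cluster 6 and Sirpa and Zeb2 in cluster 3; S100a8 and S100a9 are high only in the chosen cells outside them.

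Promoters of the named genes were searched in the same way. Of the 15 named higher genes, 12 had a promoter in the table, and 8 of these held TGGGAA (Cd38, Cd80, Ifitm1, Mt2, Nmb, Satb1, Sphk1 and St7), against 25.6% of all windows. A gene counted when any of its windows held the motif, so a share of genes is not like a share of windows. Whether the motif was more frequent in these genes was not tested. Of the 15 named lower genes, 11 had a promoter, and 3 held it (Hmgcs1, Palld and Rbpj). The Cd80 window is shown because it held 5 matches, namely the RBPJ core, the glucocorticoid receptor hexamer on each strand, the sterol regulatory element and the AP-1 site. It lay inside the Cd80 span given above and not at its start.
Cd80, chr16:38458683-38458982, plus strand: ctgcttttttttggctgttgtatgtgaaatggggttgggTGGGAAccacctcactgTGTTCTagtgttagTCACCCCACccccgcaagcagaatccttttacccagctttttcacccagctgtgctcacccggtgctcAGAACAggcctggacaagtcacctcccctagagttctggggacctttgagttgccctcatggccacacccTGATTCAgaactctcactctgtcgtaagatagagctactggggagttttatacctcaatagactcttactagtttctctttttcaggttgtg
A match shows that these letters occur in the window and says nothing of what binds there. Mt1 and Mt2, Ifitm1, H2-Eb2 and Apol7c belong to families of similar genes, and how reads shared by such copies were counted is not given in the sources used here, so their levels are less certain.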

How the data were processed

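The deposited tables held UMI counts per gene and cell, 1 library per group. Cell Ranger 2.1.1 and the mm10 build are named in the submitters' processing notes, and the labels name both a SeekOne chip and a 10x platform. A cell was kept with 200 genes or more and a mitochondrial share of up to 20%. The rule was applied to raw counts, UMIs were summed per group and scaled to CPM, and ratios were given exact conditional binomial 95% intervals. A gene was compared with at least 20 CPM in 1 group and 20 UMIs over both, the 21 genes used to choose cells left out. A zero was set to a floor of 3 counts over the group before any fold.

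Named genes were called in the same direction against both other migratory groups, with at least 50 CPM in the higher group and 100 UMIs in each comparison, and were the 15 furthest in each direction, beside the panel genes, Ndrg1 and examples from the gene lists. The members and lists were chosen with earlier results of these data known. For neighbours and clusters, counts were scaled to 10000 per cell, and 2000 variable genes without the rule's genes, 30 components, 15 neighbours and Leiden resolution 1 were used. No doublet caller was run; an alternative left out the 10% of cells with the most UMIs. The ratio calculation was tested on simulated data. Alternatives covered the rule, the scaling, the thresholds and the depth; a panel sum of 5, the clustering of all libraries and the comparison within clusters were chosen after seeing the data. Gene identifiers were matched to GENCODE M21 for 32236 of 32286, and 6 list symbols (Cxx1b, Cd64, Marchf1, Mx2, Sting1 and Mb21d1) were not in the table. Python 3.11.15, numpy 2.4.6, scipy 1.17.1, pandas 2.3.3, scanpy 1.11.5, leidenalg 0.10.2, scikit-learn 1.9.0 and matplotlib 3.10.9 were used. Some named genes are not reported here.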

Additional observations from a re-analysis of the deposited data

How the results depend on the processing

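The share of Glis3-Mylk-Ramp3 cells was lower in WT_GW5074 and KO_DMSO than in WT_DMSO under all 16 alternatives, by 3.90-fold (cells past the gate as denominator) to 24.5-fold (panel sum of at least 5) and by 3.49-fold to 16.6-fold. Counts of called genes moved with the thresholds. Against Clu-Dkk2-Il2ra cells, higher and lower genes numbered 648 and 365 at 1.5-fold, 44 and 30 at 3-fold, and 458 and 381 without a CPM minimum, and 291 were higher with cells thinned to 1000 UMIs. Against Il12b-Itgb8 cells they numbered 1204 and 502 at 1.5-fold, 78 and 50 at 3-fold, 1143 and 384 without a CPM minimum, and 201 and 294 with median-of-ratios scaling, and 577 were higher after thinning. Of 450 values of named genes under alternatives, 444 kept their call and 6 fell short of it, with the same direction (Slc26a2, Ndrg1, Haus8, Hmgcs1 and Gbp2). Medians of 4 lists changed sign: transcription factors over Il12b-Itgb8 cells (-0.0438, median of ratios), lipid binding over Il12b-Itgb8 cells (-0.0753 without the 50 most abundant genes and -0.0793 after thinning), and costimulation and glycolysis over Clu-Dkk2-Il2ra cells (-0.17 and -0.0947, thinned). The cause was not tested. Depth limits what the 201 and 149 chosen cells of WT_GW5074 and KO_DMSO can show of genes at a few counts. No paired analysis was possible because each group has 1 library.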
